A study of Homo sapiens with 6 samples.

Results

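The genes described here are those by which a cell detects RNA in its cytosol and endosomes and answers through interferon. They were taken from the deposited expression table by gene name from a list of 42 genes (DDX58 and RIGI name 1 gene), of 60612 genes in all. Of these, 29 reached a mean of at least 1 FPKM over all samples and were tested, among 12000 genes tested. FPKM counts the sequenced fragments of a gene relative to its transcript length and to the library's total. The samples came from HCT116, a human colorectal cancer cell line long in use, kept in DMEM with 10% fetal bovine serum. In 1 group, 3 samples had received the control siRNA named si NC, and in the other, 3 samples had received PLOD3 siRNA, both for 2 days. The PLOD3 enzyme hydroxylates lysines of collagen and adds sugars to them. Both groups had thus been given an siRNA, and untreated cells were not analysed here. Whether replicates within a group came from separate cultures is not stated in the labels. The p-values thus measure replicate spread that may be technical in origin.

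In the textbook pathway, RIG-I (encoded by DDX58) and MDA5 (encoded by IFIH1) bind double-stranded RNA or RNA with free 5′ phosphates in the cytosol and engage MAVS on mitochondria. The kinase TBK1 then phosphorylates IRF3 and IRF7, which switch on interferon genes. Secreted interferon binds receptors on the same and on neighbouring cells, and the ISGF3 complex, which holds STAT2 and IRF9, binds interferon-stimulated response elements and raises a large set of effector genes. Epithelial cells, colorectal lines included, hold a basal level of many of these genes without infection.

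The deposited counts summed to between 55416555 and 76802428 per sample. A read pair was worth about 4 count units, so these totals overstate the read pairs. Samples correlated over the tested genes at r = 0.961 to 0.971 within a group and 0.935 to 0.951 between groups. PLOD3 was at 6.40, 7.16 and 6.22 FPKM in the si NC samples, against 3.44, 3.40 and 4.05 FPKM with PLOD3 siRNA, with no overlap. The log2 fold change was -0.86 (SE 0.11, adjusted p = 0.0035 with edgeR), and an exact two-sided permutation test gave p = 0.1, the smallest possible with 3 against 3. With a correction for the GC content of transcripts, described below, the PLOD3 value was -0.56 and still passed. Of 10 epithelial markers, 7 had a mean of at least 1 FPKM, and CDX1 was at 0 in every sample. Of those 7, 4 were lower in PLOD3 siRNA (CDH1, KRT18, KRT19 and KRT20), beside 19.3% of all tested genes. With the correction for GC content KRT19 no longer passed (log2 fold change 0.06, edgeR adjusted p = 0.447). EPCAM (log2 fold change 0.10), KRT8 (-0.18) and CDX2 (-0.25) did not pass, and VIL1 and LGALS4 had at most 8 count units in a sample. The summed epithelial level was 667.6 to 722.3 FPKM in si NC and 563.4 to 639.2 FPKM in PLOD3 siRNA. The leukocyte markers PTPRC, CD3E, MS4A1 and CLEC4C were at 0 in all samples, and the 14 leukocyte markers summed to 1.42 to 2.55 FPKM and 2.11 to 2.39 FPKM. CD68, the only leukocyte marker with a mean of at least 1 FPKM, was at 1.26, 0.653 and 0.507 FPKM in si NC. With PLOD3 siRNA it was at 1.57, 1.57 and 1.51 FPKM, without overlap (adjusted p = 0.0614 with edgeR, 0.0162 with DESeq2). The fibroblast markers DCN, LUM and FAP were at 0 as well, and the 10 fibroblast markers summed to 5.11 to 6.02 FPKM in si NC and to 3.59 to 4.02 FPKM in PLOD3 siRNA. COL1A1 (means of 2.35 and 1.65 FPKM) and ACTA2 (2.84 and 1.98 FPKM) were tested and were lower (edgeR adjusted p = 0.0158 and 0.0423). With the correction for GC content neither passed (adjusted p = 0.170 and 0.0593). Of the 8 endothelial markers, CDH5 was at 0, and the sums were 0.192 to 0.510 and 0.273 to 0.292 FPKM. The part of the epithelial, leukocyte and fibroblast marker differences in the results below was not tested. In RNA from a whole culture, fewer cells expressing a gene and less RNA per cell cannot be told apart.

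The interferon and RNA-sensing genes did not move in one direction after PLOD3 siRNA. The helicase-like gene DDX60 and the RNA-binding effector IFIT5 rose, and the kinase TBK1 rose by a smaller amount. The membrane protein gene BST2 fell to about 23.01% of its si NC level in mean FPKM, the signal genes MAVS and TRIM25 fell, and IRF9, OAS3 and DTX3L fell by less certain amounts. The remaining 20 tested genes did not pass the test (adjusted p under 0.05 over all 12000 genes, edgeR's quasi-likelihood test), 11 with a log2 fold change below 0 and 9 above 0. Higher in PLOD3 siRNA were 3 of the 29, beside 16.2% of all tested genes, and lower were 6 of the 29, beside 19.3%. In both directions together, 9 of 29 (31.0%) passed, beside 35.5% of all tested genes, so the share was close to the background. With a change of at least 1.5-fold required as well, DDX60 and IFIT5 were higher (background 5.56%) and BST2 was lower (background 9.17%), though IFIT5 was under 1.5-fold with the correction for GC content given below. The groups did not overlap in FPKM for 12 of 29 genes (41.4%, beside 52.1% of all tested genes). Of those 12, 5 were higher in PLOD3 siRNA (background 24.6%) and 7 were lower (background 27.5%). The median log2 fold change was -0.025, with a median size of 0.25, beside 0.003 and 0.31 over all tested genes.

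The count of 6 lower genes depended on single samples. It was 7 without PLOD3 siRNA replicate 3, 4 without si NC replicate 1, and 3 without any 1 of the other 4 samples. The 3 that passed in each of these fits were MAVS, TRIM25 and BST2. Of the higher genes, DDX60 and IFIT5 passed in each of the 6 fits and TBK1 in 5. None of the 9 genes changed direction under any scaling tried. Over all genes, 1945 rose and 2319 fell, and a limma fit on log2(TPM + 1) turned this split to 2470 and 1461, with 4 members higher and 3 lower.

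**Figure D1:**
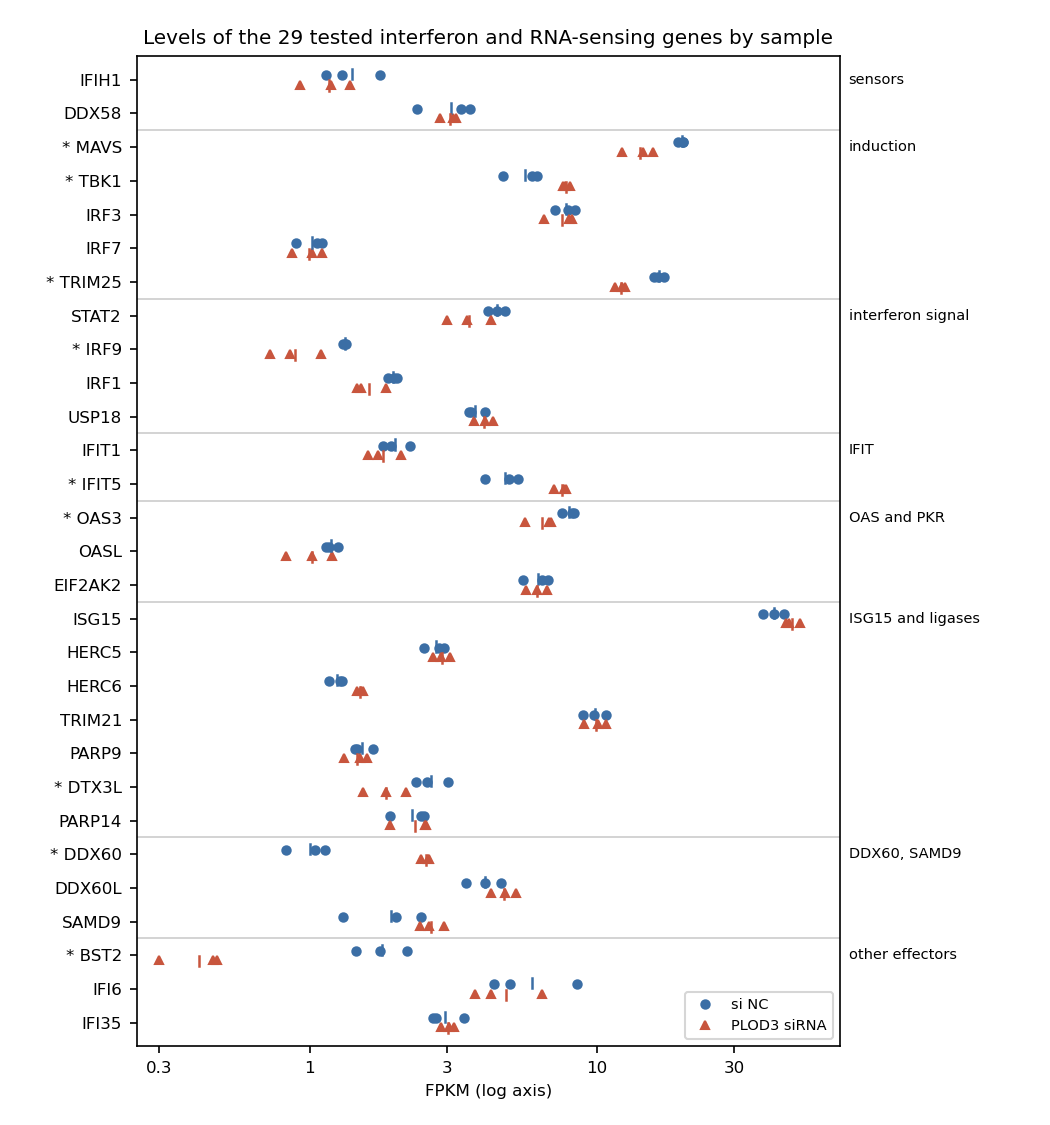
Level of each of the 29 tested genes in FPKM (log axis) in the 3 si NC samples (circles) and the 3 PLOD3 siRNA samples (triangles), with a short line at each group's mean, ordered by role; an asterisk marks an edgeR adjusted p under 0.05. The circles and triangles of most genes overlap, those of DDX60, IFIT5 and TBK1 lie apart with the triangles to the right, and those of BST2, MAVS and TRIM25 lie apart with the triangles to the left.

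Basal levels in si NC spread widely. ISG15 was highest with a mean of 41.2 ± 3.40 FPKM (SD, n = 3), followed by MAVS with 19.7 ± 0.491 FPKM and TRIM25 with 16.4 ± 0.647 FPKM. These 3 were the tested members above 10 FPKM, 15 lay between 2 and 10 FPKM, and 11 were below 2 FPKM. Of the 28 pairs of neighbours in the order of the tested members, 21 had si NC values that overlapped. The pairs that did not overlap were ISG15 and MAVS, MAVS and TRIM25, TRIM25 and TRIM21, TRIM21 and OAS3, IRF3 and EIF2AK2, IRF9 and HERC6, and OASL and IRF7. Of the sensors, DDX58 ranked 14 with a mean of 3.11 ± 0.660 FPKM and IFIH1 ranked 24 with 1.40 ± 0.325 FPKM (SD, n = 3).

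Promoter sequences were available for 35 of the 42 genes in the RefSeq table for GRCh38.p14, as windows from 250 bases before to 50 bases after each start (DDX58 under the name RIGI). DHX58, IRF3, IRF7, USP18, IFIT2, OAS2 and OASL were not matched. The letters GAAANNGAAA, the core of an interferon-stimulated response element, were searched on both strands (TTTCNNTTTC on the other), and overlapping matches were counted. At least 1 match was found for 22 of the 35 genes (62.9%), beside 1255 of all 35116 promoters (3.57%) and 3.55% of the 8623 tested gene symbols in that table. A match was present for 2 of the 3 genes that rose (DDX60 and IFIT5), for 3 of the 6 that fell (OAS3, DTX3L and BST2), for 11 of the 16 matched genes that did not pass the test, and for 6 of the 10 that were not tested. Genes with a match thus stood on both sides of the comparison. The windows below belong to the gene with the largest rise and its neighbour, to the second gene that rose by at least 1.5-fold, to the gene with the largest fall, and to DTX3L, which shares its start region with PARP9. Capitals mark the matches, and each sequence runs 5′ to 3′ on the strand of the gene.
DDX60: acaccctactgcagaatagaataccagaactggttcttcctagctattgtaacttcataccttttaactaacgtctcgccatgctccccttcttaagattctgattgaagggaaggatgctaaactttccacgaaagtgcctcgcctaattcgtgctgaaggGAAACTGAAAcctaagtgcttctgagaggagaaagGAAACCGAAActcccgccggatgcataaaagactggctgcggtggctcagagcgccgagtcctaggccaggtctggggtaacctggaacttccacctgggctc
DDX60L: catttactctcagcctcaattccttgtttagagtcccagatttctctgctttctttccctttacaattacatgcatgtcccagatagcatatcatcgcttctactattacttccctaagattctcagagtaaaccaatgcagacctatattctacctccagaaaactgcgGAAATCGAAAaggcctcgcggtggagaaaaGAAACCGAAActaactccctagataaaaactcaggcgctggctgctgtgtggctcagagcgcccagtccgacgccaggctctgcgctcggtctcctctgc
IFIT5: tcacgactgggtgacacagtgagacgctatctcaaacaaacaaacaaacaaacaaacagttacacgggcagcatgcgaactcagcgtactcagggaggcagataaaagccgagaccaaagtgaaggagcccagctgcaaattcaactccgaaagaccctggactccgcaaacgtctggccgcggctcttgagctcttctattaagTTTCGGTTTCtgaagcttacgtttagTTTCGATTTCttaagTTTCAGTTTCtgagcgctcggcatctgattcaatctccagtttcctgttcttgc
BST2: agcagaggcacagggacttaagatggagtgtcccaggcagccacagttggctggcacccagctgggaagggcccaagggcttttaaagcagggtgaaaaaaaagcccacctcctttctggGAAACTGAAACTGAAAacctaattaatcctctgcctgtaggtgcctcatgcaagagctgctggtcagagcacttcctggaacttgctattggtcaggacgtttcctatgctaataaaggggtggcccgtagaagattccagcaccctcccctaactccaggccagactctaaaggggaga
DTX3L: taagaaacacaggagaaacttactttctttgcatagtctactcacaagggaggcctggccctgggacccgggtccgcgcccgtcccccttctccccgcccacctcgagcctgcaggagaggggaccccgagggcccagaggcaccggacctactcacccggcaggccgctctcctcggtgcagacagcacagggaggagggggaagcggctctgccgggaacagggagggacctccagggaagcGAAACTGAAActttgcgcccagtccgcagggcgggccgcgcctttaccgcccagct
The DDX60 window (chr4:168318703-168319002, minus strand) holds 2 matches, whose first bases are at positions -88 and -53 relative to the start. The DDX60L window (chr4:168480443-168480742, minus strand) also holds 2 matches, at -80 and -50, and lies inside the longer DDX60L gene model of the deposited table. The neighbours thus carried a pair of matches each at like distances from their starts. In the IFIT5 window (chr10:89414318-89414617, plus strand), the first printed bases of 3 matches on the opposite strand lie from -45 to -4. In the BST2 window (chr19:17405581-17405880, minus strand), 2 overlapping matches begin at -130 and -124. The DTX3L window (chr3:122564088-122564387, plus strand) holds 1 match, at -6. A match describes the letters in these windows, and binding was not measured.

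Neither of the RNA sensors that were tested passed. IFIH1, encoding MDA5, was at 1.76, 1.14 and 1.301 FPKM after si NC, whereas the PLOD3 siRNA samples were at 1.38, 1.19 and 0.930 FPKM. The ranges overlapped, with a log2 fold change of -0.25 (SE 0.21, adjusted p = 0.399). DDX58, encoding RIG-I, was at 3.35, 2.36 and 3.604 FPKM under si NC, compared with 3.23, 3.14 and 2.83 FPKM under PLOD3 siRNA. All 3 PLOD3 siRNA samples lay inside the si NC range, with a log2 fold change of -0.01 (SE 0.17, adjusted p = 0.976). The count of sensors passing was 0 of 2 tested with edgeR, DESeq2 and limma alike, and 0 at an unadjusted p under 0.05. DHX58, encoding LGP2, a helicase of the same family without the signalling domain, was below the filter at 0.409, 0.232 and 0.308 FPKM with the control siRNA, and PLOD3 siRNA gave 0.294, 0.165 and 0.294 FPKM. TLR3, the endosomal receptor for double-stranded RNA, was also below it, at 0.283, 0.182 and 0.279 FPKM in the si NC samples, against 0.3505, 0.309 and 0.320 FPKM with PLOD3 siRNA. The TLR3 groups did not overlap, those of DHX58 did, and neither gene had a test in the edgeR fit used here.

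Among the genes that act on or after the sensors, the adaptor and a ubiquitin ligase fell while the kinase rose. In GRCh38 coordinates, MAVS (chr20:3846799-3876123, plus strand) encodes the mitochondrial adaptor to which RIG-I and MDA5 signal. It was at 19.98, 19.1 and 19.92 FPKM after si NC, whereas the PLOD3 siRNA samples were at 14.5, 12.25 and 15.62 FPKM. The lowest si NC sample was above the highest PLOD3 siRNA sample, and the log2 fold change was -0.48 (SE 0.08, adjusted p = 0.00777). TRIM25 (chr17:56836387-56914080, minus strand) encodes a ubiquitin ligase that acts on RIG-I. It was at 15.7, 17.0 and 16.4 FPKM under si NC, compared with 12.2, 11.5 and 12.5 FPKM under PLOD3 siRNA. The groups did not overlap and differed by a log2 fold change of -0.44 (SE 0.07, adjusted p = 0.00574).

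TBK1 (chr12:64452092-64502086, plus strand), the kinase that phosphorylates IRF3, was at 6.18, 4.69 and 5.92 FPKM with the control siRNA, and PLOD3 siRNA gave 8.07, 7.73 and 7.59 FPKM. The highest si NC sample was below the lowest PLOD3 siRNA sample. The log2 fold change was 0.49 (SE 0.11, adjusted p = 0.0156). Without PLOD3 siRNA replicate 1 the adjusted p was 0.0527, and with a correction for GC content the log2 fold change was 0.22 (adjusted p = 0.0570). IRF3, the factor that TBK1 activates, was at 7.91, 8.35 and 7.14 FPKM in the si NC samples, against 6.54, 8.19 and 8.02 FPKM with PLOD3 siRNA. Its groups overlapped (log2 fold change -0.03, SE 0.13, adjusted p = 0.859), and it shares 734 bases with BCL2L12 on the opposite strand, whose means were 8.24 and 10.3 FPKM. IRF7, the interferon-inducible factor of the same family, was near the filter at means of 1.02 ± 0.112 and 0.995 ± 0.119 FPKM (SD, n = 3), with overlapping groups (adjusted p = 0.913). The strand setting of the counting is not given, so reads of partners on opposite strands cannot be told apart.

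Of the genes that carry the signal from the interferon receptor to the nucleus, IRF9 passed the test. IRF9 (chr14:24161265-24166565, plus strand), the DNA-binding member of ISGF3, was at 1.33, 1.31 and 1.34 FPKM after si NC, whereas the PLOD3 siRNA samples were at 0.730, 0.856 and 1.09 FPKM. The si NC samples lay close together and above every PLOD3 siRNA sample, with a log2 fold change of -0.55 (SE 0.17, adjusted p = 0.0475). This call held in 1 of the 6 fits that leave out a sample (without PLOD3 siRNA replicate 3, adjusted p = 0.0287), and the adjusted p reached 0.121 in the others. It held in 3 of the 10 other fits in which IRF9 was tested. IRF9 overlaps a gene model on the same strand, AL136295, by 5188 bases. The means of AL136295 were 4.797 and 3.84 FPKM, and reads of both may have been split between them. STAT2, its partner, was at 4.78, 4.17 and 4.49 FPKM under si NC, compared with 3.52, 3.02 and 4.26 FPKM under PLOD3 siRNA. The third PLOD3 siRNA sample lay within the si NC range, and the log2 fold change was -0.31 (SE 0.12, adjusted p = 0.0918, or 0.0286 without PLOD3 siRNA replicate 3). IRF1, an interferon-induced transcription factor, had groups that did not overlap (2.01, 1.87 and 1.97 against 1.51, 1.46 and 1.84 FPKM). It missed the threshold with a log2 fold change of -0.28 (SE 0.11, adjusted p = 0.0896, or 0.0410 without PLOD3 siRNA replicate 3). USP18, which removes ISG15 and restrains the receptor, had means of 3.76 ± 0.273 and 4.04 ± 0.312 FPKM (SD, n = 3), and its groups overlapped (adjusted p = 0.520).

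The IFIT genes encode tetratricopeptide proteins that bind the ends of foreign RNA and lie side by side on chromosome 10. IFIT5 (chr10:89414568-89420997, plus strand) was at 5.32, 4.08 and 4.93 FPKM with the control siRNA, and PLOD3 siRNA gave 7.11, 7.81 and 7.67 FPKM. Every PLOD3 siRNA sample exceeded every si NC sample, and the log2 fold change was 0.67 (SE 0.11, adjusted p = 0.00754). With the correction for GC content the log2 fold change was 0.36, and the call held. IFIT1 was at 2.24, 1.80 and 1.92 FPKM in the si NC samples, against 1.73, 2.08 and 1.596 FPKM with PLOD3 siRNA. Its groups overlapped, with a log2 fold change of -0.13 (SE 0.15, adjusted p = 0.547). IFIT2 and IFIT3 were below the filter, at 0.418 to 0.796 FPKM and 0.531 to 0.878 FPKM over all samples. IFIT1, IFIT2 and IFIT3 lie inside LIPA on the opposite strand, whose means were 10.7 and 10.3 FPKM, so their reads are uncertain.

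The OAS enzymes make 2′-5′ oligoadenylates on double-stranded RNA and so activate RNase L. OAS3 (chr12:112938444-112968054, plus strand), the largest of them, was at 7.56, 8.29 and 8.15 FPKM after si NC, whereas the PLOD3 siRNA samples were at 6.79, 5.64 and 6.93 FPKM. The groups did not overlap, and the log2 fold change was -0.31 (SE 0.09, adjusted p = 0.0396). This call held in 1 of the 6 fits that leave out a sample (without si NC replicate 1, adjusted p = 0.0399), with an adjusted p of up to 0.112 in the others. It held in 4 of the 11 other fits in which OAS3 was tested. OASL, a family member without the synthetase activity, had means of 1.19 ± 0.0591 and 1.02 ± 0.185 FPKM (SD, n = 3) and did not pass (adjusted p = 0.360). OAS1 and OAS2, the neighbours of OAS3, were at or below 0.236 FPKM in every sample. EIF2AK2, encoding PKR, the kinase that stops translation on double-stranded RNA, was at 6.77, 5.54 and 6.42 FPKM under si NC, compared with 6.18, 5.66 and 6.72 FPKM under PLOD3 siRNA. Its groups overlapped (log2 fold change -0.01, SE 0.09, adjusted p = 0.953), and with the correction for GC content the log2 fold change was -0.29 (adjusted p = 0.0247).

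ISG15, an interferon-induced protein like ubiquitin that ligases attach to other proteins, was the most abundant of the genes. It was at 41.3, 44.6 and 37.8 FPKM with the control siRNA, and PLOD3 siRNA gave 46.7, 50.9 and 45.3 FPKM. The groups lay next to each other without overlap, and the log2 fold change of 0.21 (SE 0.11, adjusted p = 0.157) missed the threshold. It passed with the correction for GC content (0.54, adjusted p = 0.00897) and with limma on log2(TPM + 1) (0.31, adjusted p = 0.0475). HERC5, the main ligase for ISG15 in human cells, had means of 2.75 ± 0.230 and 2.88 ± 0.199 FPKM (SD, n = 3), and the groups overlapped (adjusted p = 0.630). HERC6, its neighbour and relative, was at 1.27, 1.29 and 1.17 FPKM in the si NC samples, against 1.51, 1.47 and 1.53 FPKM with PLOD3 siRNA. Those groups did not overlap, with a log2 fold change of 0.27 (SE 0.10, adjusted p = 0.0808). TRIM21, a cytosolic antibody receptor and ubiquitin ligase, did not pass the test, at means of 9.82 ± 0.906 and 9.94 ± 0.855 FPKM (SD, n = 3, adjusted p = 0.890).

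DTX3L (chr3:122564338-122575203, plus strand), a ubiquitin ligase that works in a complex with the ADP-ribosyltransferase PARP9, was at 3.03, 2.56 and 2.35 FPKM after si NC, whereas the PLOD3 siRNA samples were at 1.85, 1.54 and 2.17 FPKM. The groups did not overlap, and the log2 fold change was -0.51 (SE 0.14, adjusted p = 0.0349). This call held in 1 of the 6 fits that leave out a sample (without PLOD3 siRNA replicate 3, adjusted p = 0.0285), with an adjusted p of up to 0.0975 in the others. It held in 5 of the 10 other fits in which DTX3L was tested. PARP9, which lies head to head with DTX3L and overlaps it by 240 bases, was at 1.46, 1.44 and 1.66 FPKM under si NC, compared with 1.49, 1.31 and 1.59 FPKM under PLOD3 siRNA. Its groups overlapped (log2 fold change -0.05, SE 0.11, adjusted p = 0.739). PARP14, a further ADP-ribosyltransferase 105.6 kb away, had means of 2.28 ± 0.327 and 2.32 ± 0.357 FPKM (SD, n = 3, adjusted p = 0.890).

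DDX60 had the largest rise of the tested genes of this group. DDX60 (chr4:168216294-168318804, minus strand) encodes a helicase-like protein that interferon induces and that has been linked to RIG-I signalling. It was at 1.13, 0.827 and 1.04 FPKM with the control siRNA, and PLOD3 siRNA gave 2.57, 2.44 and 2.60 FPKM. The groups were far apart relative to their spread, with means of 1.00 ± 0.156 and 2.54 ± 0.0883 FPKM (SD, n = 3), and the log2 fold change was 1.35 (SE 0.13, adjusted p = 0.00239). With the correction for GC content it was 1.08 (adjusted p = 0.00262). The adjusted p stayed between 0.00719 and 0.0143 in the 6 fits that leave out a sample. DDX60L, a paralogue 37.9 kb away on the same strand, was at 4.62, 3.49 and 4.06 FPKM in the si NC samples, against 5.21, 4.29 and 4.77 FPKM with PLOD3 siRNA. Its groups overlapped, with a log2 fold change of 0.23 (SE 0.11, adjusted p = 0.135). Reads that match both paralogues may have been counted for either, and DDX60L also overlaps PALLD on the opposite strand (means of 13.7 and 12.7 FPKM). SAMD9, an antiviral protein that acts on translation, was at 2.45, 1.304 and 2.00 FPKM after si NC, whereas the PLOD3 siRNA samples were at 2.93, 2.60 and 2.42 FPKM. The groups overlapped, with a log2 fold change of 0.48 (SE 0.22, adjusted p = 0.130). Its neighbour and paralogue SAMD9L had at most 8 count units in a sample, where 4 units stand for about 1 read pair.

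BST2 had the largest fall. BST2 (chr19:17402939-17405630, minus strand) encodes tetherin, a membrane protein that holds budding virus particles at the cell surface. It was at 1.45, 1.75 and 2.17 FPKM under si NC, compared with 0.476, 0.3003 and 0.461 FPKM under PLOD3 siRNA. The lowest si NC sample was well above the highest PLOD3 siRNA sample, and the log2 fold change was -2.10 (SE 0.27, adjusted p = 0.00362). The counts behind these values were small, at 107, 149 and 217 units in si NC and 45, 22 and 34 units in PLOD3 siRNA. The call held in the 6 fits that leave out a sample and in the 10 other fits in which the gene was tested. IFI6, a mitochondrial protein with an anti-apoptotic role, was at 8.50, 4.38 and 4.97 FPKM with the control siRNA, and PLOD3 siRNA gave 6.44, 3.77 and 4.28 FPKM. Replicate 1 was the highest in both groups and the groups overlapped (log2 fold change -0.29, SE 0.30, adjusted p = 0.486). IFI35, a leucine zipper protein, had means of 2.96 ± 0.425 and 3.03 ± 0.156 FPKM (SD, n = 3, adjusted p = 0.867).

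**Figure D2:**
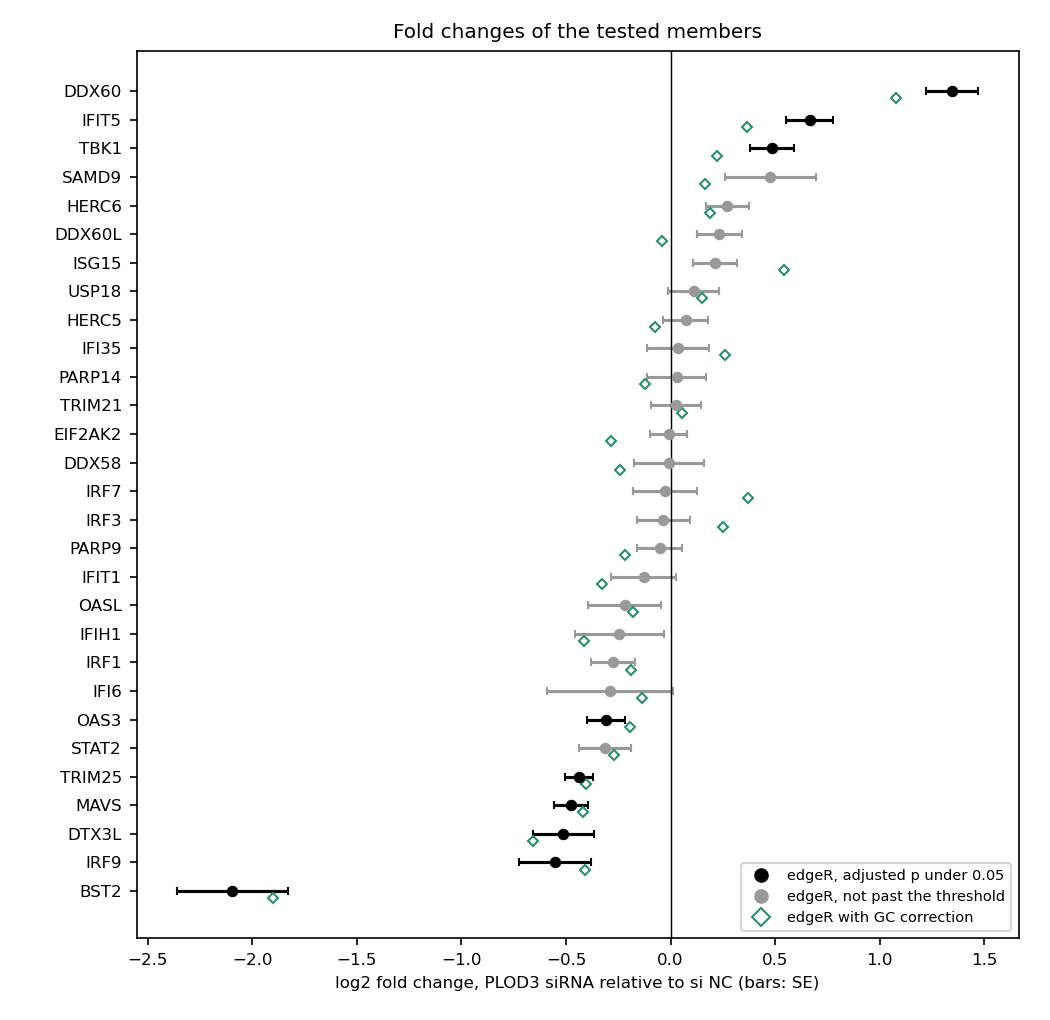
The log2 fold change of PLOD3 siRNA relative to si NC for each of the 29 tested genes, with its SE as bars (3 samples per group); filled black points have an edgeR adjusted p under 0.05, grey points do not, and open diamonds give the fold change after correction for GC content. DDX60 at 1.35 and BST2 at -2.10 stand at the ends, and 20 of the 29 points are grey.

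Several effectors known for large responses to interferon were low in both groups. The 13 genes below the filter were DHX58, TLR3, IFIT2, IFIT3, OAS1, OAS2, SAMD9L, MX1, ISG20, XAF1, CMPK2, IFI27 and IFI44, and the highest value of any of them in any sample was 0.878 FPKM. MX1, the GTPase that blocks viral ribonucleoproteins, was at 0.0346 to 0.0866 FPKM over the 6 samples. XAF1, a proapoptotic interferon target, had 0 counts in every sample, which at 3 read pairs allows up to 0.156 to 0.217 CPM (counts scaled to the library total), for counting error alone. IFI44, a cytosolic induced protein, had 0 counts in PLOD3 siRNA replicate 2 and up to 18 units elsewhere. ISG20, an RNA exonuclease, was at 0.385, 0.425 and 0.399 FPKM in the si NC samples, against 0.227, 0.315 and 0.164 FPKM with PLOD3 siRNA, without overlap. CMPK2, a mitochondrial nucleotide kinase, was at 0.387, 0.3502 and 0.310 FPKM after si NC, whereas the PLOD3 siRNA samples were at 0.157, 0.230 and 0.285 FPKM, also without overlap. IFI27, a mitochondrial and nuclear envelope protein, was at 0.601, 0.642 and 0.509 FPKM under si NC, compared with 0.484, 0.295 and 0.441 FPKM under PLOD3 siRNA. ISG20, CMPK2 and IFI27, and IFIT3 among those given above, lay lower in each PLOD3 siRNA sample than in each si NC sample. TLR3 lay higher, and these genes were singled out after their values were seen. How many of all genes under 1 FPKM lay apart in this way was not counted, so a trend cannot be read from these genes.

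With the filter lowered to a mean of 0.1 FPKM (19840 genes), 8 of the 13 entered the fit and 37 of the 42 were tested. None of the 8 passed with edgeR, the smallest adjusted p was 0.0996 for ISG20, and 1 of the 8 had an unadjusted p under 0.05. DESeq2 and limma were not run on these 8. Their log2 fold changes ran from -0.74 for ISG20 to 0.42 for TLR3, with a median of -0.45, and 7 of 8 were below 0. The median over all 19840 genes of that fit, most of them at or above 1 FPKM, was 0.01. Neither the median nor the share below 0 was computed for the genes under 1 FPKM, so a like background is missing. Among all genes with a mean under 1 FPKM in that fit (7840), 2.31% were higher and 6.12% lower. In the whole of that fit, 3 members were higher, beside 9.44% of genes, and 4 were lower, beside 12.4%.

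Neighbouring genes of the set gave a comparison within each sample, since the ratio of their levels does not depend on scaling between samples. There were 5 neighbouring pairs with both genes tested. The ratio of DDX60 to DDX60L was 0.245, 0.237 and 0.257 with si NC, and 0.494, 0.568 and 0.545 with PLOD3 siRNA. The samples of a group lay close together and the groups far apart, with means of 0.246 ± 0.0100 and 0.536 ± 0.0382 (SD, n = 3). The ratio of IFIT1 to IFIT5 was 0.422, 0.440 and 0.389 with si NC, and 0.243, 0.266 and 0.208 with PLOD3 siRNA. This pair was also apart in every sample, with the ratio lower in PLOD3 siRNA. For the pairs that share DTX3L, the ratio of PARP9 to DTX3L had means of 0.583 ± 0.113 and 0.799 ± 0.0610, and that of DTX3L to PARP14 had means of 1.18 ± 0.208 and 0.799 ± 0.0615 (SD, n = 3), neither with overlap. For these 4 pairs the exact two-sided permutation p was 0.1, the smallest that 3 against 3 samples allow, and 0.125 after Benjamini-Hochberg adjustment over 5 pairs. Each of the 4 holds a gene that passed by itself (DDX60, IFIT5 or DTX3L), so the ratios are not separate evidence. How often the ratios of other gene pairs lay apart was not counted, and 52.1% of single tested genes did. The IFIT1 reads are uncertain, since IFIT1 lies inside LIPA. The ratio of HERC6 to HERC5 overlapped between groups, with means of 0.456 ± 0.0597 and 0.523 ± 0.0417 (SD, n = 3, exact permutation p = 0.3).

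**Figure D3:**
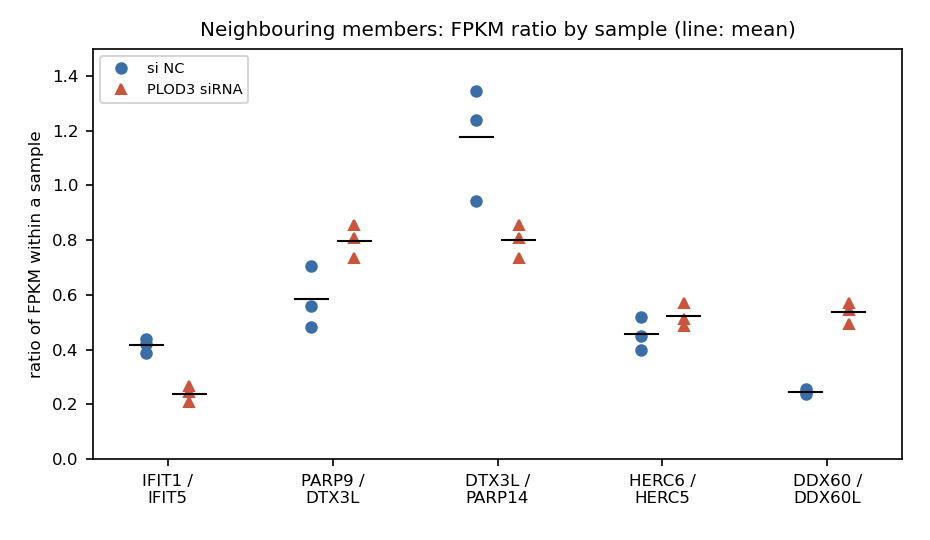
Ratio of FPKM between neighbouring genes within each sample (vertical axis, from 0, no unit) for 5 pairs, in 3 si NC samples (circles) and 3 PLOD3 siRNA samples (triangles), with a line at each mean. For DDX60 over DDX60L the 3 circles lie at 0.237 to 0.257 and the 3 triangles at 0.494 to 0.568, while the 2 groups overlap for HERC6 over HERC5.

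Over all tested genes, the direction of change went with the GC content of the transcript. Tested genes were divided into 4 bins of about equal size by the GC content of their longest coding transcript. In the lowest bin (23.1% to 42.6% GC), 32.8% of genes were higher and 2.64% lower, with a median log2 fold change of 0.27. In the highest bin (57.0% to 78.7% GC), 2.95% were higher and 40% lower, with a median of -0.32. The 3 genes that rose, DDX60 (39.1% GC), IFIT5 (37.4%) and TBK1 (39.3%), were among the 8 members of the lowest bin, of which 0 fell. The bin from 49.1% to 57.0% GC held 10 members, of which 0 rose and 4 fell (MAVS, TRIM25, IRF9 and OAS3), beside 9.25% and 23.4% of all its genes. DTX3L was the 1 lower gene among 6 members from 42.6% to 49.1% GC (19.9% higher and 11.5% lower over all genes), and BST2 the 1 among 5 members of the highest bin. After correction for this trend, DDX60, IFIT5 and ISG15 were higher and MAVS, TRIM25, EIF2AK2, DTX3L and BST2 were lower. Of all 12000 genes in the corrected fit, 1447 were higher and 1859 were lower. TBK1, IRF9 and OAS3 no longer passed, at adjusted p = 0.0570, 0.116 and 0.116. The median of the 29 moved from -0.025 to -0.14. The source of the GC trend was not tested.

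**Figure D4:**
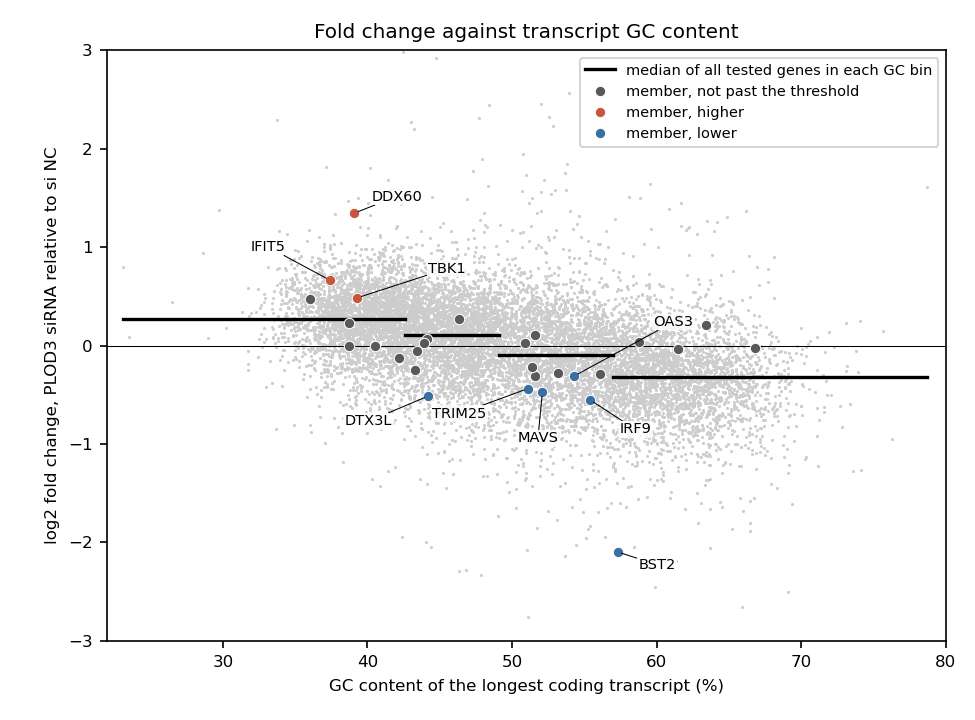
The log2 fold change of PLOD3 siRNA relative to si NC (vertical axis) against the GC content of the longest coding transcript in percent (horizontal axis), for tested genes (small grey points; 38 genes beyond 3 in size are not drawn) and the 29 members (large points), with a bar at the median of each GC bin. The bin medians step down from 0.27 to -0.32, the 3 higher members stand at the left, and BST2 at -2.10 lies far under its bin's median.

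Other genes of the same pathway were read from 5 lists holding 110 genes outside the 42, of which 72 were tested. Of these 72, 8 were higher and 20 lower (38.9%, beside 35.5% of all tested genes). The lists were chosen with earlier results of these data known, so their counts are descriptions and not tests. The interferon genes themselves were near or at 0. Of 10 ligand genes, 6 had no count in any sample. Of the other 4, named after their values were seen, IFNB1 had 4 units in si NC replicate 3 and in PLOD3 siRNA replicate 3 and 0 elsewhere, IFNA1 had at most 8 units, IFNL3 had 5 units in 1 sample, and IFNE was at 0.407 to 0.712 FPKM. None of the ligands had a mean of at least 1 FPKM, so none was tested. The IFNB1 counts were under the floor of 3 read pairs (12 units) in every sample, and a difference within that range was not detectable at this depth.

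The receptors and the JAK-STAT genes, which pass the signal from the cell surface, gave 0 higher and 2 lower of 13 tested, beside 16.2% and 19.3% of all tested genes. STAT3, a transcription factor of cytokine signalling, was at 8.91, 9.62 and 8.94 FPKM with the control siRNA, and PLOD3 siRNA gave 5.60, 4.67 and 5.72 FPKM. The groups did not overlap, and the log2 fold change was -0.78 (SE 0.09, adjusted p = 0.0028). SOCS3, a feedback inhibitor that STAT3 induces, fell as well (log2 fold change -0.58, adjusted p = 0.0151, or 0.0558 with the correction for GC content). The receptor chains IFNAR1 (log2 fold change 0.07, adjusted p = 0.575) and IFNAR2 (-0.46, SE 0.21, adjusted p = 0.127) did not pass.

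Of 27 further interferon-induced genes that were tested, 1 was higher and 10 lower, beside 16.2% and 19.3% of all tested genes, with a median log2 fold change of -0.28. The count of 10 was 6 without si NC replicate 3 and 7 without any 1 of the other samples. Because this list was chosen with earlier results known, no excess of lower genes can be read from the count. IFITM1, a membrane protein that blocks virus entry, was at 4.19, 4.44 and 4.39 FPKM after si NC, whereas the PLOD3 siRNA samples were at 1.36, 1.40 and 1.23 FPKM. The groups were far apart, with a log2 fold change of -1.69 (SE 0.15, adjusted p = 0.00215). IFITM1 lies within the IFITM2 gene model on the same strand, whose means were 30.3 and 18.8 FPKM. Reads of IFITM1 and IFITM2 may have been split between them. LGALS3BP, a secreted galectin-binding glycoprotein, fell by 0.81 on the log2 scale, RNF213, a giant ubiquitin ligase, fell by 0.70, HELZ2, a helicase coactivator, fell by 0.84, and SHFL, an inhibitor of ribosomal frameshifting, fell by 0.71 (adjusted p of 0.00244 to 0.00649). With the correction for GC content HELZ2 fell by 0.43. NMI, a partner of IFI35, was at 1.55, 1.29 and 1.21 FPKM under si NC, compared with 2.03, 2.02 and 2.31 FPKM under PLOD3 siRNA. The rise in NMI passed the test (log2 fold change 0.66, adjusted p = 0.0127, or 0.0599 with the correction for GC content).

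Of 23 tested proteins that help or restrain the RNA sensors, 5 were higher and 6 lower, beside 16.2% and 19.3% of all tested genes. DHX9, a nuclear helicase that binds double-stranded RNA, rose from 64.2 ± 1.92 to 90.3 ± 6.83 FPKM (SD, n = 3, log2 fold change 0.50, adjusted p = 0.00416). TOMM70, the outer mitochondrial membrane receptor that binds MAVS, rose by a log2 fold change of 0.41 (adjusted p = 0.00838), and AZI2, an adaptor of TBK1, by 0.49 (adjusted p = 0.0100). UNC93B1, which carries endosomal Toll-like receptors, fell by 0.51 on the log2 scale, TICAM1, the adaptor of TLR3, fell by 0.53, and OTUD5, a deubiquitinase of TRAF3, fell by 0.55 (adjusted p of 0.00799 to 0.0104). With the correction for GC content, AZI2, UNC93B1 and TICAM1 no longer passed (adjusted p of 0.0926 to 0.162). TOMM70 and OTUD5 then passed with smaller log2 fold changes of 0.21 and -0.30, and the list gave 3 higher and 3 lower. In that corrected fit, 1447 of all 12000 genes were higher and 1859 were lower.

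Of 9 tested genes of cytosolic DNA sensing and nucleic acid clearance, 2 were higher and 2 lower, beside 16.2% and 19.3% of all tested genes. STING1, the adaptor for cyclic GMP-AMP at the endoplasmic reticulum, was at 4.19, 4.09 and 4.13 FPKM with the control siRNA, and PLOD3 siRNA gave 1.97, 1.92 and 2.29 FPKM. Its groups did not overlap, and the log2 fold change was -0.99 (SE 0.10, adjusted p = 0.00242). CGAS, the enzyme that makes this signal, and AIM2, a DNA sensor of inflammasomes, had 0 counts in every sample and were singled out after their values were seen. DNASE2, the lysosomal DNA nuclease, fell (log2 fold change -0.46, adjusted p = 0.0228). PNPT1, the mitochondrial RNA-degrading phosphorylase, rose (0.67, adjusted p = 0.00551), as did SUPV3L1, the helicase that works with it (0.26, adjusted p = 0.0357). With the correction for GC content, DNASE2 and SUPV3L1 no longer passed (adjusted p = 0.0608 and 0.170), and PNPT1 had a log2 fold change of 0.44. With 1 sample left out, DNASE2 missed the threshold without si NC replicate 3, PLOD3 siRNA replicate 2 or PLOD3 siRNA replicate 3 (adjusted p of up to 0.0637), and SUPV3L1 passed without si NC replicate 2 (0.0497) but not without any other sample (up to 0.106).

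**Figure D5:**
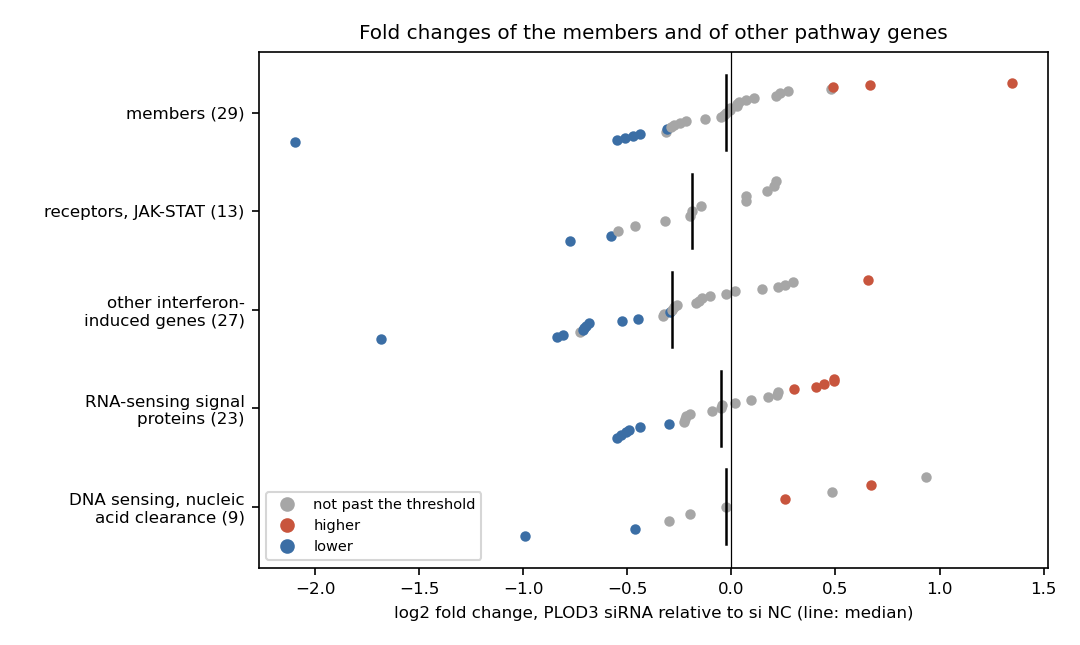
Each point is the log2 fold change of 1 tested gene, PLOD3 siRNA relative to si NC, for the 29 members and 4 lists of other pathway genes (number tested in parentheses), coloured by the edgeR call, with a line at the median; points are spread vertically by rank. The members' median is at -0.025 and that of the other interferon-induced genes at -0.28, where 10 of 27 points are lower and 1 is higher. Members and lists were chosen with earlier results of these data known, so the counts are descriptive.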

How the data were processed

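RNA-seq of 3 si NC and 3 PLOD3 siRNA samples was analysed from 1 table deposited by the authors, with an FPKM and an estimated count per gene and sample. FPKM values were deposited per the file headers, with 0.0001 for a gene without reads, which was read as 0. The estimated counts were deposited as whole numbers, per the file headers, and were used as they stand. Trimming, alignment and assembly tools were, per the submitters' processing notes, HISAT2 2.0.4, StringTie 1.3.4d and cutadapt 1.9. Not given in the sources used here are the genome build, annotation, strand setting and counting method. Of the gene identifiers, 58394 (96.3%) were found in GENCODE 29 (GRCh38), with 99.8% of these at an overlapping position, and coordinates were read as GRCh38. Low counts piled up at multiples of 4 (on average 1490 genes per sample at 4 units, 558 at 3 and 312 at 5), which is where the 4 units per read pair come from.

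Genes with a mean of at least 1 FPKM over the 6 samples were tested across all genes with edgeR 4.0.16 (R 4.3.3; TMM scaling, quasi-likelihood test, two-sided, Benjamini-Hochberg over 12000 genes, threshold 0.05). The SE is the size of the log2 fold change divided by the square root of F. Single values were tested by exact permutation over samples. The GC correction used a loess trend (span 0.5) per sample as an offset, over 11968 genes with a GC value. Alternatives used DESeq2 1.42.0, limma 3.58.1 on log2(FPKM + 1), log2(FPKM + 0.1) and log2(TPM + 1), other scaling and filters, counts divided by 4, a replicate block, and leaving out each sample. The fit was also run on simulated data with few changed genes and no GC trend, unlike these data, and no result here rests on it. Totals of 55416555 to 76802428 units per sample put the floor of 3 read pairs at 0.156 to 0.217 CPM. Named were PLOD3, the members, and per pathway list at most the 6 genes of smallest p that passed, with IFNAR1, IFNAR2 and 1 further gene in any case, the last of which is not reported here. The members and lists were chosen with earlier results of these data known.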

Additional observations from a re-analysis of the deposited data

How the results depend on the processing

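Over all genes, 1945 rose and 2319 fell. A filter at a mean of 5 FPKM gave 1192 and 1354, and limma on log2(TPM + 1), in which the median log2 fold change of all genes was 0.095 in place of 0.003, gave 2470 and 1461. Leaving out 1 sample gave 1083 to 1651 higher genes and 1509 to 2011 lower genes, lowest without PLOD3 siRNA replicate 1 (1083 and 1530) and without si NC replicate 3 (1106 and 1509). The count of members higher was 2 to 4 over all alternatives. The count of members lower was 3, in place of 6, at a filter of 5 FPKM, which kept 10 members among 6095 genes. MAVS, TRIM25 and OAS3 stayed lower there, and IRF9, DTX3L and BST2 were under that filter and not tested. The count was also 3 with no filter and with limma on log2(FPKM + 1), on log2(FPKM + 0.1) and on log2(TPM + 1). It was 3 to 7 when 1 sample was left out. The median log2 fold change of the members was -0.12 at a filter of 0.1 FPKM, -0.14 with the GC correction and 0.057 with limma on log2(TPM + 1), in place of -0.025, and -0.071 to 0.024 when 1 sample was left out. The PLOD3 value was -0.93 to -0.77 with 1 sample left out, -0.56 with the GC correction and -0.70 with limma on log2(TPM + 1), in place of -0.86, and it passed in all 6 of those fits and in the 11 others. Of the member values under alternatives, 433 stayed on the same side of the threshold, 36 no longer passed and 5 came to pass. Of the 433, 394 kept their direction, and 39 values of 11 genes, not past the threshold in either fit, changed it. None of the called genes reversed. The causes of these moves were not tested, beyond the fewer samples or genes that the settings hold.

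Replicate numbers are shared between the groups, but same-numbered samples did not deviate together (r = 0.0486, -0.0107 and -0.023 across genes), so the numbers were not taken to pair them. For si NC replicate 1 the highest r was with its own number, and for the other 2 si NC samples it was not. With the replicate number as a block, 1471 genes were higher and 1834 lower, and 3 members were higher and 3 lower. Depth limits the genes under 1 FPKM and BST2 in PLOD3 siRNA.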
